A study of Mus musculus with 9 samples.

Results

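Small RNA was sequenced from B16F1, a melanoma line of C57BL/6J mouse origin, and compared between a depigmenting and a pigmenting exposure. The 6 libraries used were 3 from 5-Brd-2′-dU exposure (dose 2.5 µg/mL) and 3 from L-Tyr exposure (dose 5 mM), each for 72 h, out of 9 libraries in the series. The other 3 libraries, of unexposed control cells, are given beside the exposed ones as the background level. Members were chosen by the sample labels, and counts were summed for each arm of each known hairpin. Every result rests on this 1 cell line, and the labels give no pooling of cultures.

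5-Brd-2′-dU (BrdU) is a thymidine analogue that is built into DNA and has long been known to suppress pigment formation in melanoma cells. L-Tyr is the amino acid that tyrosinase, the first enzyme of melanin synthesis, oxidises. A miRNA hairpin is cut into a duplex, and either its 5′ arm (5p) or its 3′ arm (3p) can be loaded into Argonaute, where bases 2 to 8 of the strand, the seed, pair with target mRNAs. In pigment cells, MITF, the transcription factor that drives the melanogenic enzymes, also drives Trpm1, whose intron carries the hairpin of miR-211.

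The 6 hairpin arms that differed between the exposures are shown with their mature sequences, together with the second arm of miR-335. The seed is in capitals. Sequences are those of RefSeq on GRCm38.p6, written 5′ to 3′.
miR-211-5p: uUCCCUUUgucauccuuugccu
miR-211-3p: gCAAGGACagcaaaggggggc
miR-1249-3p: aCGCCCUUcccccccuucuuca
miR-335-3p: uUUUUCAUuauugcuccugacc
miR-335-5p: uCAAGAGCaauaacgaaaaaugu
miR-193b-3p: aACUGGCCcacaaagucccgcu
miR-21a-5p: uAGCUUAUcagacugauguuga
No pair of these 7 shares a seed. miR-204-5p carries the seed of miR-211-5p, but its tags held at most 14 counts in any of the 9 libraries, too few to be tested.

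The deposited total was 144452 to 238245 counts per library for L-Tyr, 171362 to 384486 for 5-Brd-2′-dU and 198810 to 424122 for control cells. Levels are given as counts scaled to a common library size with TMM factors (CPM). A library with 0 counts still allows up to 3, which were worth 6.87 to 20.6 CPM. Replicate 3 of 5-Brd-2′-dU stood apart. miR-143 took 19.7% of its counts in hairpin arms (95% Wilson interval 19.6% to 19.9%) and at most 0.744% of any other library, and tags of 20 nt, the longest listed, held 65.5% of its tag counts against 55.7% to 57.0% in the other 5 exposed libraries. The melanocyte marker fixed for these cells, miR-211, was present in all 9 libraries. Of the 13 listed arms of stromal and endothelial miRNAs (miR-143, miR-145a, miR-199, miR-214, miR-126a), 12 were highest in replicate 3, where their summed level was 283943 CPM, against 2715 to 7910 CPM for L-Tyr, 3815 and 4942 CPM in the other 2 libraries of 5-Brd-2′-dU and 2014 to 3454 CPM in control cells. The erythroid list summed to 6742 CPM there and to at most 534 CPM elsewhere, the leukocyte list to 1544 CPM against at most 72.0 CPM, and the 21 arms of the imprinted Dlk1-Dio3 cluster to 14321 CPM against at most 247 CPM. In these lists 3 of 5, 2 of 4 and 20 of 21 arms were highest in replicate 3. The leukocyte arms miR-150-5p and miR-155-5p had 0 counts there, and the erythroid miR-486a-5p and miR-486b-5p were highest in replicate 1 of 5-Brd-2′-dU. Of 6 neuronal arms 0 were highest in replicate 3, and their sum of 2505 CPM lay within the 2007 to 5257 CPM of L-Tyr. The muscle miRNA miR-1a was at 0 in the other 8 libraries and summed to 242 CPM in replicate 3, whereas the hepatic miR-122 reached 80.0 CPM in replicate 2 of L-Tyr and 22.0 CPM in replicate 3. Fold changes of the called arms, of most other arms named and of the lists are therefore also given without replicate 3.

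Of 543 arms listed under 391 hairpins, 231 had enough counts to be tested, and 6 were called (2.6% of those tested) by the quasi-likelihood test of edgeR at a Benjamini-Hochberg adjusted p under 0.05. Relative to L-Tyr, 3 arms were lower in 5-Brd-2′-dU (1.3%), namely both arms of miR-211 and miR-1249-3p, and 3 were higher (1.3%), namely miR-335-3p, miR-193b-3p and miR-21a-5p. At an unadjusted p under 0.05, 18 arms were higher (7.79%) and 11 lower (4.76%). Over all tested arms the log2 fold change had a median of 0.05 with TMM and −0.11 with scaling by the total count alone, a shift that turned the direction of no called arm. Without replicate 3 of 5-Brd-2′-dU, 250 arms were tested and 5 were called (2%), 3 higher (1.2%) and 2 lower (0.8%), all 5 of them among the 6 above. The exception was miR-1249-3p, with an adjusted p of 0.0644. These p-values measure the spread between libraries of 1 cell line, and the replicates varied widely: the square root of the common dispersion, about the coefficient of variation of an arm beyond counting error, was 0.79.

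**Figure D1:**
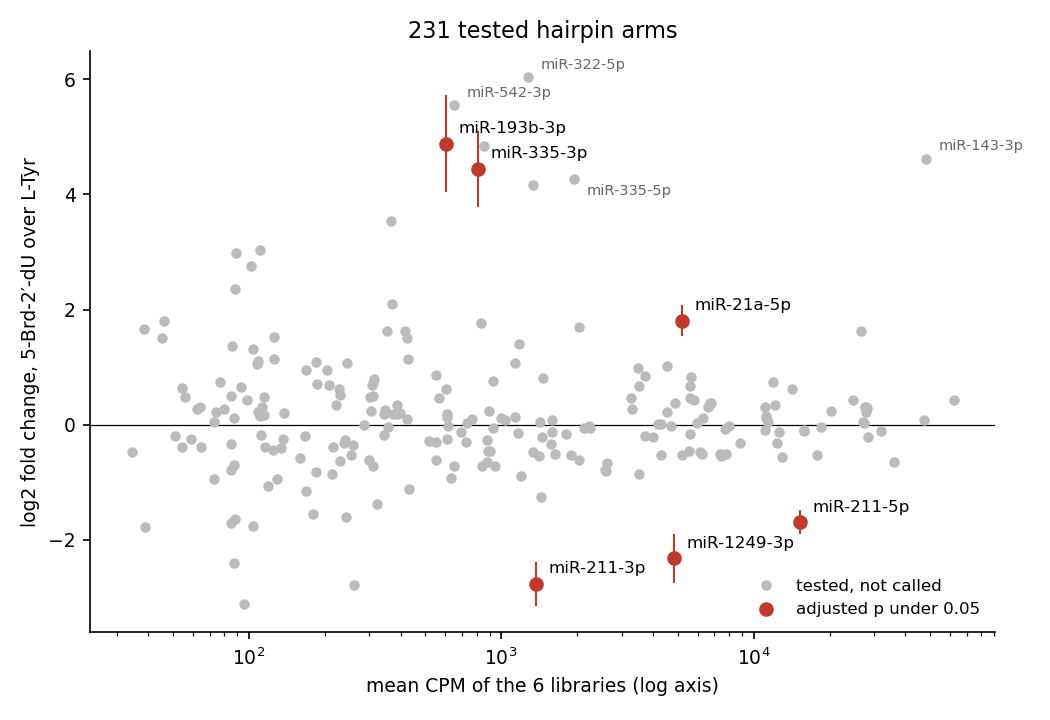
Log2 fold change of 5-Brd-2′-dU over L-Tyr (vertical axis) against the mean CPM of the 6 libraries (horizontal log axis) for the 231 tested arms, one point per arm. Red points are the 6 arms with an adjusted p under 0.05, with bars of 1 SE; 3 lie above and 3 below the line at 0, while several grey arms with changes as large, such as miR-143-3p and miR-322-5p, were not called.

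Both arms of miR-211 fell. miR-211-5p, the arm that carries most of its counts, had 25158, 24829 and 20657 CPM in the L-Tyr libraries and 7541, 6699.9 and 7153 CPM in the 5-Brd-2′-dU libraries. The groups did not overlap, and the control libraries, at 9367, 14165 and 15325 CPM, lay between them. The level was 3.24-fold lower in 5-Brd-2′-dU than in L-Tyr (log2 fold change −1.70, SE 0.21, adjusted p = 0.00522, edgeR). Without replicate 3 it was −1.73 (SE 0.21, adjusted p = 0.0124), and the arm was called whichever of the 6 libraries was left out. The hairpin lies on chromosome 7 of NCBIM37 (mm9) from 71350692 to 71350797 on the plus strand, in an intron of Trpm1. In bulk RNA, fewer cells that make a miRNA and less of it per cell cannot be told apart.

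The fitted fall of the 3p arm was larger than that of the 5p arm. miR-211-3p had 2263, 2424 and 2542 CPM with L-Tyr, 243, 414 and 393 CPM with 5-Brd-2′-dU, and 1103, 962 and 1559 CPM in control cells, again without overlap. It was 6.81-fold lower in 5-Brd-2′-dU (log2 fold change −2.77, SE 0.39, adjusted p = 0.00613) and −2.88 (SE 0.43, adjusted p = 0.0225) without replicate 3. The call was lost without replicate 3 of L-Tyr (log2 fold change −2.69, adjusted p = 0.0897).

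The share of the 3p arm in the counts of the miR-211 hairpin was compared to set both arms against each other within a library. It was 8.25% (95% Wilson interval 7.44% to 9.15%), 8.90% (8.24% to 9.60%) and 10.96% (10.1% to 11.9%) for L-Tyr, and 3.12% (2.31% to 4.21%), 5.81% (5.04% to 6.70%) and 5.20% (4.32% to 6.25%) for 5-Brd-2′-dU. In control cells it was 10.5%, 6.36% and 9.23%. The mean difference was −4.66 percentage points (exact permutation test, two-sided, p = 0.1, the smallest that 3 libraries against 3 allow). Among the 54 hairpins with both arms tested, 5 had 3p shares that did not overlap between the exposures (9.26%), so a separation of this kind was not rare. The intervals cover counting error only, since no molecular identifiers marked PCR copies of a molecule.

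The starts of the tags that make up miR-211-5p were compared as well. A tag is a read sequence of 13 to 20 nt, shorter than the mature miRNA of 22 nt, and each is listed with its start in the hairpin. Tags that began at the annotated 5′ end held 21.2%, 19.8% and 19.2% of the miR-211-5p counts for L-Tyr and 29.0%, 25.9% and 43.3% for 5-Brd-2′-dU. The groups did not overlap (mean difference 12.7 percentage points, exact permutation test, two-sided, p = 0.1), whereas the control libraries, at 31.4%, 28.5% and 16.2%, spanned the range of L-Tyr and of the lower 5-Brd-2′-dU libraries. Replicate 3 of 5-Brd-2′-dU, at 43.3%, raised that difference, and without it the groups still did not overlap. In that library the share also stood apart for other arms, higher in some and lower in miR-423-5p, as given below with miR-21a-5p. Of 95 arms with at least 50 counts in each exposed library, 10 had shares at the annotated 5′ end that did not overlap (10.5%).

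The ratio of L-Tyr to 5-Brd-2′-dU differed between the starts of miR-211-5p. At the annotated end, the mean level was 4735 CPM in the L-Tyr libraries and 2341 CPM in those of 5-Brd-2′-dU, a ratio of 2.02. At the start 2 nt further in, it was 9280.0 CPM and 1864 CPM, a ratio of 4.98, and at the starts 3, 4 and 5 nt in the ratios were 4.22, 3.47 and 3.45. The groups did not overlap at any of these 5 starts, but they did at the start 1 nt in, where the ratio was 1.89. The start 2 nt in was the most abundant in every L-Tyr library and in replicates 1 and 2 of 5-Brd-2′-dU, narrowly so in replicate 1. By library, 5-Brd-2′-dU had 2189, 1733 and 3100 CPM at the annotated end and 2207, 2056 and 1328 CPM at 2 nt in. Replicate 3 thus lowered the ratio at the annotated end and raised that at 2 nt in. Tags that start 2 nt or more downstream do not hold the whole seed printed above. When only tags at the annotated 5′ end were counted, an alternative chosen after seeing the data, 114 arms were tested and miR-211-5p had a log2 fold change of −1.09 (adjusted p = 0.117). The table does not show whether the start of a tag was the 5′ end of its read.

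**Figure D2:**
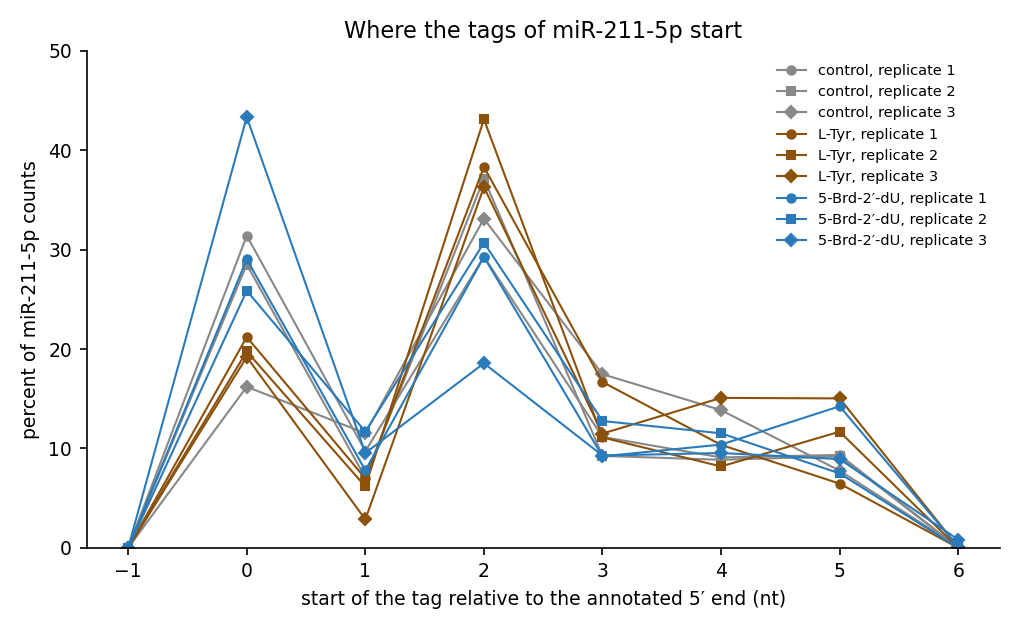
Percent of the miR-211-5p counts of each library (vertical axis) by the start of the tag relative to the annotated 5′ end in nt (horizontal axis), with 1 line for each of the 9 libraries. The 5-Brd-2′-dU libraries hold 25.9% to 43.3% at 0 and the L-Tyr libraries 19.2% to 21.2%; the order is turned at 2 nt.

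miR-1249-3p was the third arm called lower. It had 9373, 4365 and 10488 CPM in the L-Tyr libraries and 2106, 943 and 1713 CPM in those of 5-Brd-2′-dU, with 1974, 2273 and 2726 CPM in control cells. All 3 L-Tyr libraries lay above every other library, while the levels of 5-Brd-2′-dU and control cells overlapped. The log2 fold change between the exposures was −2.32 (SE 0.42, adjusted p = 0.0156), or 5.01-fold lower in 5-Brd-2′-dU. The adjusted p was 0.171 without replicate 3 of L-Tyr, 0.0529 without its replicate 1, 0.0920 without replicate 2 of 5-Brd-2′-dU and 0.0644 without its replicate 3, so the call needed each of these 4 libraries. The hairpin lies on chromosome 15 of mm9 from 84781956 to 84782053 on the minus strand, over an exon of 5031439G07Rik.

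miR-335-3p rose, and its 5p arm lay higher in every 5-Brd-2′-dU library as well. The hairpin lies on chromosome 6 of mm9 from 30691299 to 30691396 on the plus strand, in an intron of Mest, an imprinted gene expressed from the paternal copy. miR-335-3p had 109.7, 28.01 and 81.1 CPM in the L-Tyr libraries and 1353, 1857 and 1442 CPM in those of 5-Brd-2′-dU, and in control cells 116, 93.9 and 0 CPM. The 5-Brd-2′-dU libraries lay far above both other groups, which overlapped. The fitted difference from L-Tyr was 21.8-fold (log2 fold change 4.45, SE 0.67, adjusted p = 0.00613) and 4.46 (SE 0.73, adjusted p = 0.0291) on the log2 scale without replicate 3. The call was lost without replicate 2 of 5-Brd-2′-dU (adjusted p = 0.0920) or replicate 3 of L-Tyr (adjusted p = 0.0897), with log2 fold changes of 4.26 and 4.54. It was also lost when the control libraries joined the fit (adjusted p = 0.0848) and with tags of 20 nt only (adjusted p = 0.204), the latter chosen after seeing the data. The L-Tyr counts were 16, 7 and 15, so the arm passed the filter on low counts mainly through its level in 5-Brd-2′-dU.

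The other arm, miR-335-5p, was more abundant and gave a similar fitted change without being called. It had 459, 132 and 0 CPM with L-Tyr, 3655, 3105 and 4310.3 CPM with 5-Brd-2′-dU and 368, 513 and 541 CPM in control cells. L-Tyr and 5-Brd-2′-dU libraries did not overlap. The fit gave a log2 fold change of 4.28 (SE 1.15, adjusted p = 0.147) and 4.13 (SE 1.24, adjusted p = 0.309) without replicate 3. Its L-Tyr counts were 67, 33 and 0, so that 1 library in which the arm was not detected entered the fit.

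miR-193b and miR-365-1 are neighbours on chromosome 16 of mm9, with hairpins from 13449616 to 13449694 and from 13453933 to 13454019, both on the plus strand and outside annotated genes. miR-193b is known as a repressor of cyclin D1 in melanoma cells. miR-193b-3p had 6.86, 56.0 and 54.1 CPM in the L-Tyr libraries and 1353, 1120.5 and 1034 CPM in those of 5-Brd-2′-dU, against 0, 16.03 and 252 CPM in control cells. The 5-Brd-2′-dU libraries lay above all 6 others. The fitted difference was 29.5-fold (log2 fold change 4.88, SE 0.85, adjusted p = 0.0136), and 4.93 (SE 0.93, adjusted p = 0.0407) on the log2 scale without replicate 3. The L-Tyr counts were 1, 14 and 10, near the minimum count of 10 of the filter, so this arm was tested because of its level in 5-Brd-2′-dU, and the size of the fold is uncertain. The call was lost without replicate 2 (adjusted p = 0.0730) or 3 (adjusted p = 0.109) of L-Tyr and without replicate 1 (adjusted p = 0.0990) or 2 (adjusted p = 0.114) of 5-Brd-2′-dU. It was also lost when the control libraries joined the fit (adjusted p = 0.115).

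The neighbour miR-365-3p was not called. Listed under miR-365-1, it had 89.1, 104 and 422 CPM with L-Tyr, 635, 698 and 558 CPM with 5-Brd-2′-dU and 82.2, 80.1 and 248 CPM in control cells. The groups did not overlap, with a log2 fold change of 1.63 (SE 0.83, adjusted p = 0.515), and 1.69 without replicate 3. It was 1.50 (SE 0.88) for the copy of the same mature sequence under miR-365-2, on chromosome 11. Of 431 tag sequences listed under several hairpins, 6 had identical counts under each. How reads were assigned to the copies is not given in the sources used here, so the level of a copy may not be that of its locus.

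miR-21a-5p was the most abundant arm called higher. miR-21 represses PDCD4, an inhibitor of translation, and is raised in many cancers. It had 2331, 2592 and 2045 CPM in the L-Tyr libraries and 5897, 6942 and 11493 CPM in those of 5-Brd-2′-dU, against 1877, 2143 and 644 CPM in control cells. Every 5-Brd-2′-dU library lay above every other library. The level was 3.49-fold higher than in L-Tyr (log2 fold change 1.80, SE 0.27, adjusted p = 0.00613). Replicate 3 was the highest, and without it the fit gave 1.46 on the log2 scale (SE 0.25, adjusted p = 0.0304). The tags of miR-21a-5p in replicate 3 were also made up differently: 26.1% of them (95% Wilson interval 24.6% to 27.7%) began at the annotated 5′ end, against 0.402% to 5.00% in the other 5 exposed libraries. This was not particular to miR-21a-5p. In replicate 3 that share was 46.8% for miR-26b-5p and 57.7% for miR-23a-3p, against 5.13% to 11.6% and 24.1% to 34.6% in the other exposed libraries. For miR-423-5p it was 42.7%, the lowest of the exposed libraries. The call of miR-21a-5p was lost without replicate 1 (adjusted p = 0.0529), 2 (adjusted p = 0.0730) or 3 (adjusted p = 0.171) of L-Tyr. It was also lost without replicate 2 of 5-Brd-2′-dU (adjusted p = 0.0535), and when the control libraries joined the fit (adjusted p = 0.0531). The hairpin lies on chromosome 11 of mm9 from 86397569 to 86397660 on the minus strand, over an exon of Vmp1.

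**Figure D3:**
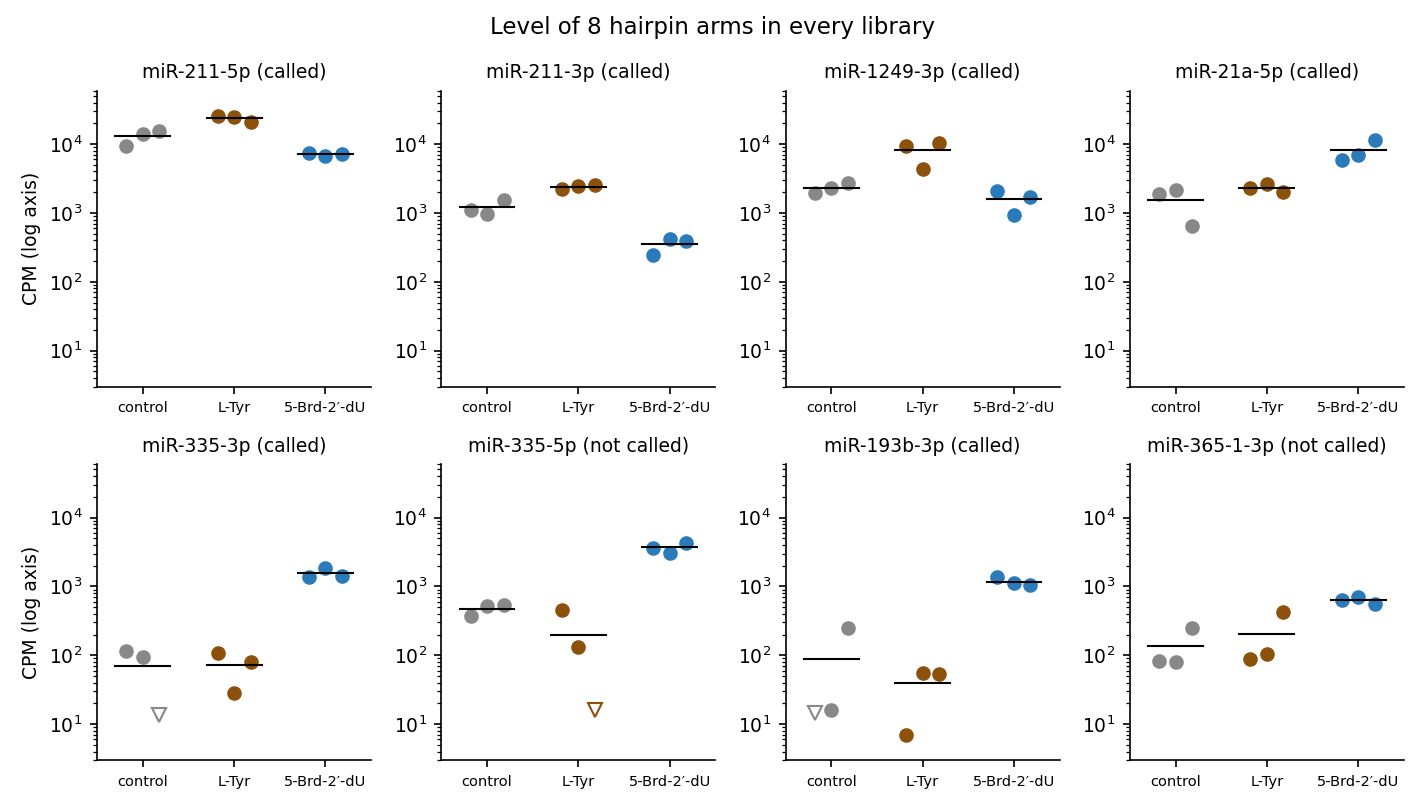
CPM on a log axis of 8 hairpin arms in the 3 control, 3 L-Tyr and 3 5-Brd-2′-dU libraries, replicates 1 to 3 from left to right in each group. Points are libraries, black bars the group means of CPM, and open triangles libraries with 0 counts, drawn at the limit of 3 counts. In each panel the L-Tyr and the 5-Brd-2′-dU libraries do not overlap.

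With the called arms included, the groups of L-Tyr and 5-Brd-2′-dU did not overlap in 24 tested arms that were higher (10.4%) and 21 that were lower (9.09%). Several of these were abundant and had an unadjusted p under 0.05. They are named because of those values and failed the adjustment. miR-31-5p had 3703, 4969 and 3646 CPM in the L-Tyr libraries and 6283, 7016 and 8257 CPM in those of 5-Brd-2′-dU (log2 fold change 0.82, SE 0.23, adjusted p = 0.147, and 0.69 without replicate 3). For miR-22-3p, which promotes senescence when overexpressed, the levels were 3984, 5349 and 3878 CPM against 6384, 7848 and 6321 CPM (0.66, SE 0.24, adjusted p = 0.223, and 0.68 without replicate 3). In control cells miR-31-5p was at 6319, 5329.8 and 7800.0 CPM, overlapping 5-Brd-2′-dU and above every L-Tyr library, and miR-22-3p was at 2796, 2312 and 3001 CPM, below both exposures.

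Among arms with lower levels in 5-Brd-2′-dU, miR-149-5p, encoded in an intron of Gpc1, had 5115, 4237 and 4241 CPM in the L-Tyr libraries and 1982, 2329 and 3169 CPM in those of 5-Brd-2′-dU. It gave a log2 fold change of −0.85 (SE 0.25, adjusted p = 0.176), and −1.08 (SE 0.27, adjusted p = 0.137) without replicate 3. The levels of miR-501-3p were 2338, 1528 and 2245 CPM against 878, 940.3 and 689.6 CPM (−1.25, SE 0.37, adjusted p = 0.183, and −1.17 without replicate 3). miR-10b-5p, encoded in the HoxD cluster, had 15455, 16751 and 14610.0 CPM against 10412, 10623 and 9941 CPM (−0.57, SE 0.20, adjusted p = 0.223, and −0.57 without replicate 3). In control cells the levels were 2279 to 3082 CPM for miR-149-5p, 916 to 1856 CPM for miR-501-3p and 9666 to 11394 CPM for miR-10b-5p. For each of these 3 arms the control mean lay nearer to that of 5-Brd-2′-dU than to that of L-Tyr. miR-361-5p, which the rule for names also takes, had 930.4 to 2380.5 CPM in the L-Tyr libraries and 439 to 1460.1 CPM in those of 5-Brd-2′-dU, overlapping, with a log2 fold change of −0.89 (SE 0.58, adjusted p = 0.612), and −0.74 without replicate 3.

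Further miRNAs were looked at because they had been chosen for RT-qPCR in the same cells. miR-30d-5p was abundant, with 46826, 42648 and 42786 CPM with L-Tyr, 25006, 24549 and 34089.7 CPM with 5-Brd-2′-dU and 20688, 23377 and 20967 CPM in control cells. The 3 groups did not overlap. The log2 fold change between the exposures was −0.65 (SE 0.20, adjusted p = 0.183), and without replicate 3, the highest of its group, it was −0.84 (SE 0.17, adjusted p = 0.0503). miR-129-5p, a miRNA with 2 loci, had 6185, 6453 and 5382 CPM against 9973, 6755 and 5917 CPM under its first hairpin, which overlapped and lay above the control libraries at 2405 to 3019 CPM, with a log2 fold change of 0.37 (SE 0.28, adjusted p = 0.704), and 0.48 without replicate 3.

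For miR-148b-3p, whose targets include Mitf, the levels were 1995, 2040.4 and 655 CPM in the L-Tyr libraries and 789, 2218 and 1893 CPM in those of 5-Brd-2′-dU, with a log2 fold change of 0.08 (SE 0.53, adjusted p = 0.97), and −0.07 without replicate 3. Both exposures lay below the control libraries, at 3145 to 4343 CPM. miR-27b-3p had 17766, 25233 and 20187 CPM against 22319, 22597 and 40113 CPM, and its log2 fold change was 0.43 (SE 0.27), and 0.09 (SE 0.21) without replicate 3. Neither differed between the exposures beyond the spread of the libraries. miR-470-5p and miR-470-3p had no tag, and their entries by mature name held 0 counts in all 9 libraries, which allows a level of up to 20.6 CPM in the shallowest library.

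Among miRNAs that carry the seed of miR-15 and miR-16, or belong to that family, which limits entry into the cell cycle through cyclins D and E, the members differed in level. The mature sequences of 4 of them are shown with the seed in capitals.
miR-16-5p: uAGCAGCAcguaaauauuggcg
miR-15b-5p: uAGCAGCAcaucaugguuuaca
miR-322-5p: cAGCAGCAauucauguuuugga
miR-503-5p: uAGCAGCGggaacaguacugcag
The most abundant, miR-15b-5p, had 19480.4, 17655 and 19808 CPM in the L-Tyr libraries and 20278, 18919 and 14882 CPM in those of 5-Brd-2′-dU (log2 fold change −0.04, SE 0.23), and miR-16-5p under its first hairpin had a log2 fold change of 0.00 (SE 0.27). miR-503-5p had 384, 376 and 389 CPM against 1525, 855 and 1456 CPM, without overlap, and 561, 756 and 577 CPM in control cells. The fit gave a log2 fold change of 1.76 (SE 0.48, adjusted p = 0.147) and 1.63 (SE 0.55, adjusted p = 0.355) without replicate 3. miR-322-5p, from the same cluster on the X chromosome, had 0, 100.0 and 0 CPM against 47.5, 173 and 7369.7 CPM, so that nearly all of its level lay in replicate 3.

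Of the 14 arms listed for this family 9 were tested and none was called. miR-503-5p and miR-322-5p had an unadjusted p under 0.05, both higher, beside 7.79% of all tested arms higher by that measure. As given below, miR-322-5p was tested mainly through its level in 5-Brd-2′-dU. The median log2 fold change of the 9 was 0.43, beside 0.05 for all tested arms, and 0.48 without replicate 3. The 9 include miR-15b-3p and miR-322-3p, the arms opposite to those with the seed, and both medians are the value of miR-322-3p. The cluster of miR-322, miR-503, miR-351, miR-542 and miR-450 had 9 tested arms, of which 3 were higher at an unadjusted p under 0.05 and none was called, beside 7.79% of all tested arms higher by that measure. Their median was 0.46, and 0.42 without replicate 3. The 3 arms were miR-503-5p, miR-322-5p and miR-542-3p. Without replicate 3, miR-322-5p went from 6.04 to 1.67 and miR-542-3p from 5.55 to 3.51. The more abundant arm of the miR-322 hairpin, miR-322-3p, had a log2 fold change of 0.43 (SE 0.33).

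For miRNAs reported to act on pigmentation, 14 of 23 listed arms were tested and 2 were called, both lower and both from miR-211, which is on the list for its known role, beside 1.3% of all tested arms called lower. The median was 0.01, and −0.03 without replicate 3. Its other members included miR-25-3p (log2 fold change −0.81, SE 0.28, adjusted p = 0.223), with 2811, 3161 and 4019 CPM in the L-Tyr libraries and 1697, 1959 and 1966 CPM in those of 5-Brd-2′-dU, and the abundant miR-125b-5p (0.11, SE 0.26, under its first hairpin). The most abundant arm on the list, miR-27a-3p, went up (1.63, SE 0.58, adjusted p = 0.223, and 0.56 without replicate 3). Of the 14 tested arms, 7 were above 0 and 7 below. Of the let-7 family with miR-98, whose members repress Ras, Hmga2 and cyclins, 19 of 21 arms were tested and none was called. Their median was 0.11, and 0.17 without replicate 3, and 13 were above 0 and 6 below. let-7e-5p had 3730.2, 2216 and 3240.1 CPM against 8804, 3766 and 5561 CPM (1.02, SE 0.36, adjusted p = 0.223, and 1.04 without replicate 3), whereas the abundant let-7b-5p and let-7c-5p (second hairpin) had log2 fold changes of 0.23 (SE 0.30) and 0.03 (SE 0.31).

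The cluster that holds let-7e with miR-99b and miR-125a had 6 tested arms, 5 of them above 0, with a median of 0.73 (0.67 without replicate 3) and none called. miR-99b-5p, the most abundant arm of this cluster, had 61013, 42800.2 and 57537 CPM in the L-Tyr libraries and 86072, 62794 and 64027 CPM in those of 5-Brd-2′-dU, with 26038, 32340.5 and 40271 CPM in control cells. The 3 groups did not overlap, with a log2 fold change of 0.43 (SE 0.26, adjusted p = 0.604), and 0.47 without replicate 3.

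For the miR-17/92 and miR-106b/25 clusters, which promote proliferation, 12 arms were tested, none was called and the median was −0.04 (−0.08 without replicate 3). miR-92a-3p under its first hairpin had a log2 fold change of −0.22 (SE 0.30). The miRNAs linked to p53 and senescence gave 11 tested arms, none called, with a median of 0.43 (0.33 without replicate 3), and 8 were above 0. miR-34c-5p, a direct p53 target, was below the filter, with 0 counts in each of the L-Tyr libraries and 41, 29 and 0 counts in those of 5-Brd-2′-dU. miR-34b-3p, from the same cluster, was tested and ran the other way, with 39, 26 and 5 counts against 0, 0 and 36 (log2 fold change −1.64, SE 2.04, adjusted p = 0.945). Without replicate 3, which held all of its 5-Brd-2′-dU counts, the fit gave −7.97, a size that rests on libraries with 0 counts. The miR-30 family had 10 tested arms, none called and a median of −0.10, which was −0.36 without replicate 3, and the L-Tyr and 5-Brd-2′-dU libraries did not overlap in 3 of them, all lower, beside 9.09% of all tested arms. The miR-23/27/24 clusters had 11 tested arms, none called and a median of 0.30, which was 0.05 without replicate 3. miRNAs studied in melanoma progression had 5 tested arms, of which miR-21a-5p was called, beside 1.3% of all tested arms called higher. Their median was 0.82, and −0.89 without replicate 3. The remaining members tested on this list were miR-31-5p, miR-149-5p, miR-182-5p and miR-221-3p. Only miR-221-3p changed sign without replicate 3, from 1.62 to −0.89, and the other members kept theirs.

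**Figure D4:**
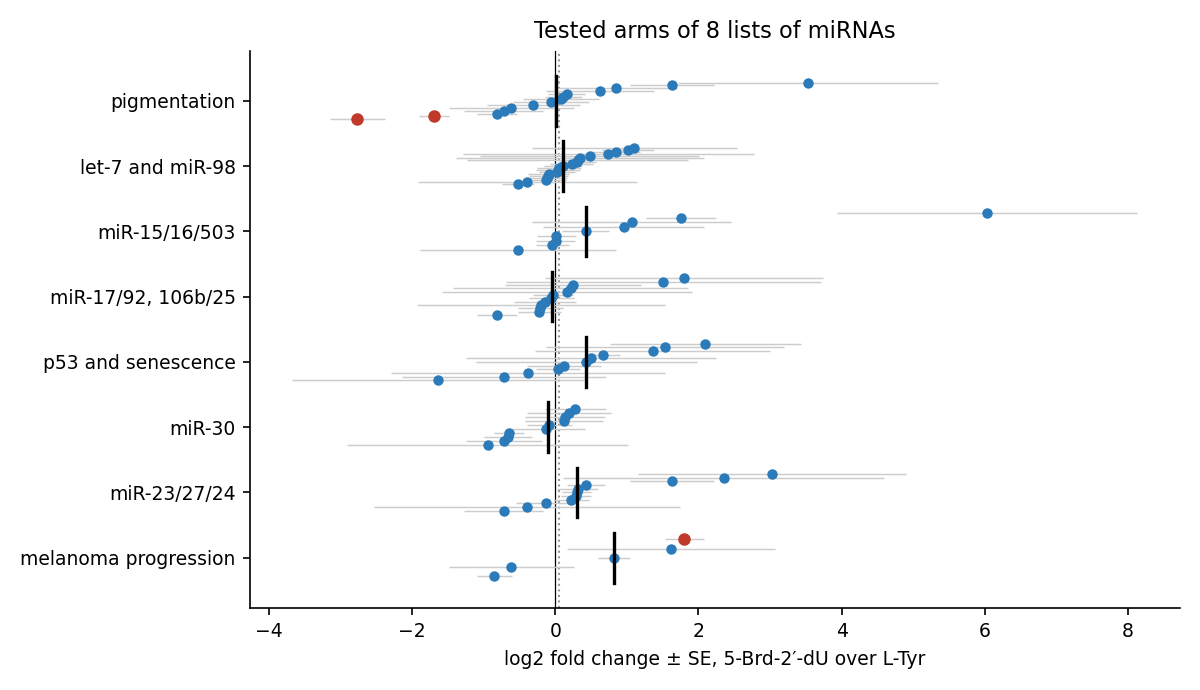
Log2 fold changes of 5-Brd-2′-dU over L-Tyr (horizontal axis, bars of 1 SE) for the tested arms of 8 lists of miRNAs, with the median of each list as a black line and that of all tested arms as a dotted line. Red points are called arms; both arms of miR-211 are the only ones called in the pigmentation list and miR-21a-5p in the melanoma progression list.

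Of the 6 largest fitted rises among arms at or above the median level of 653 CPM, miR-335-3p was called, and miR-335-5p is given above. The other 4 were not called, and their levels lay mostly in replicate 3 of 5-Brd-2′-dU. miR-143-3p had 1879, 6961 and 1779.6 CPM in the L-Tyr libraries and 3091, 3941 and 270821 CPM in those of 5-Brd-2′-dU. Its log2 fold change of 4.62 (SE 1.61, adjusted p = 0.223) became −0.02 (SE 0.60) without replicate 3. miR-322-5p went from 6.04 to 1.67, miR-100-5p from 4.84 to 1.96 and miR-542-3p from 5.55 to 3.51. The stromal and endothelial list is high in the same library, as given above.

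miR-126a-3p, an endothelial miRNA, went from 4.16 (SE 1.28) to 0.81 (SE 1.10), and miR-27a-3p from 1.63 (SE 0.58) to 0.56 (SE 0.37). The 6 tested arms of the stromal and endothelial list had a median log2 fold change of 2.13 with replicate 3 and −0.27 without it. Among the 6 called arms, the largest such shift was that of miR-21a-5p, from 1.80 to 1.46. Of the 228 arms tested both ways, 194 kept the sign of their change.

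**Figure D5:**
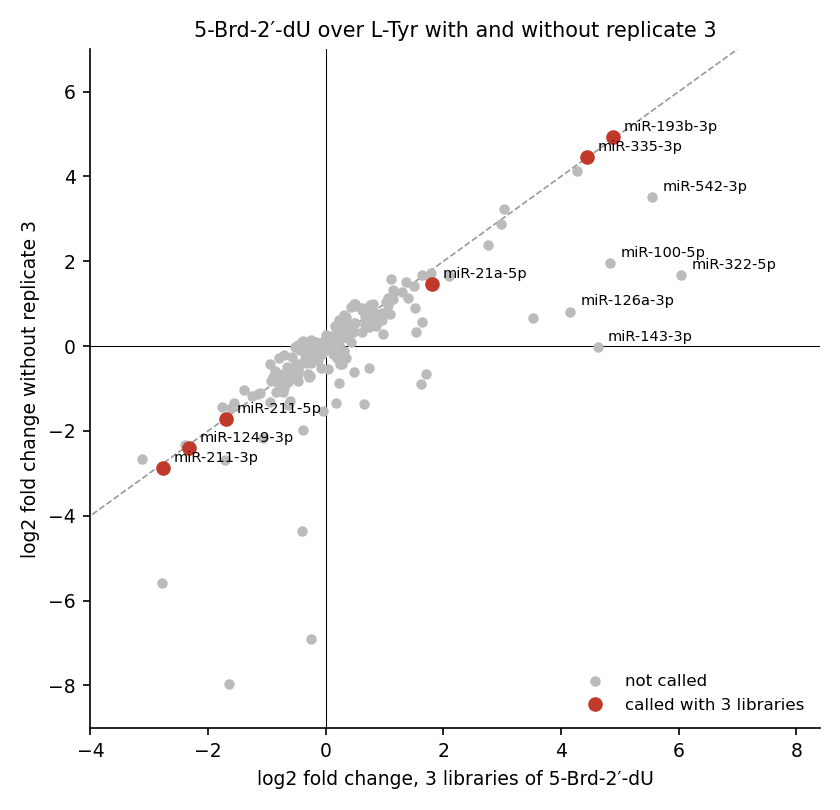
Log2 fold change of 5-Brd-2′-dU over L-Tyr without replicate 3 of 5-Brd-2′-dU (vertical axis) against that with all 3 libraries (horizontal axis) for the 228 arms tested in both fits; the dashed line marks equal values. The 6 red points, called with 3 libraries, lie near the line, and miR-143-3p, miR-322-5p, miR-100-5p and miR-126a-3p lie far below it.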

How the data were processed

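Small RNA libraries of B16F1 cells were analysed from a table of whole-number read counts that the authors deposited for 9 libraries, unnormalized, with an entry for each read sequence (tag) under a hairpin. The submitters' processing notes name mm9, FastQC, MultiQC, DESeq and DESeq2. The other deposited files hold normalized counts and the authors' comparisons (fold changes and p-values) and were not used.

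Entries for predicted hairpins (1.95% of the counts in the 6 exposed libraries) and entries by mature name (0.117%) were left out, and tags were summed by hairpin and arm, with a start below base 35 taken as 5p. Arms were filtered with filterByExpr (minimum count 10) and fitted with the quasi-likelihood test of edgeR 4.0.16 in R 4.3.3, with TMM scaling, on the 6 libraries without a replicate term, and p-values were adjusted by Benjamini-Hochberg over all arms tested. Printed CPM use TMM factors of all 9 libraries. Shares were compared by exact permutation tests (Python 3.11.15 with numpy 2.4.6), with Wilson intervals. DESeq2 1.42.0 and other settings were tried as alternatives. A tag sequence listed under several hairpins (431 sequences, 27.8% of tag counts) was summed under each, and how its reads were assigned is not given in the sources used here. Positions are those of the mm9 annotation, which held 229 of the 391 hairpins, and mature sequences are from RefSeq, which held 323.

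The arms named are the called ones, with or without replicate 3 of 5-Brd-2′-dU, the other arm of their hairpins where tested, the 6 largest changes in each direction among arms at or above the median level, miRNAs assayed by RT-qPCR, and the most abundant members of lists. Further list members and arms whose groups did not overlap were named after their values were seen. Members and lists were chosen with earlier results of these data known.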

Additional observations from a re-analysis of the deposited data

Results flagged for a closer look

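Predicted hairpins, which no comparison used, took a larger share of the counts in every exposed library than in any control library. In the L-Tyr libraries the share ranged from 1.69% to 2.89%, and in those of 5-Brd-2′-dU from 1.74% to 1.99%, against 1.00% to 1.66% in control cells.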

How the results depend on the processing

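The count of 6 called arms (3 higher, 3 lower) was also given by DESeq2's size factors, scaling by the total count, a mean count of at least 50, merged copies, added mature-name entries, arm boundaries at 30 and 40, and leaving out miR-143, miR-3963 or, chosen after seeing the data, the stromal miRNAs. No filter on low counts gave 26 (22 higher, 4 lower), DESeq2's Wald test 12 (7 and 5), all 9 libraries in one fit 3 (0 and 3; 35 at an unadjusted p under 0.05) and single tags 2 (1 and 1). Of the settings chosen after seeing the data, tags at the annotated 5′ end gave 1 (0 and 1; 13 unadjusted), DESeq2 with 2 5-Brd-2′-dU libraries 15 (3 and 12), and tags of 20 nt 5 (2 and 3). The cause of these shifts was not tested. With 1 library left out, 1 to 5 arms were called, 0 to 3 higher and 1 to 3 lower, with the fewest without replicate 3 of L-Tyr. A replicate block gave 5 (2 and 3), without miR-193b-3p (adjusted p = 0.0865, edgeR); correlations of same-numbered libraries were 0.084, −0.039 and −0.057, so the numbers were not read as a pairing. A change of sign was counted as a reversal only where the log2 fold change exceeded its SE in either fit. Of 430 values of the named arms, 397 kept their side of the threshold without a reversal so counted, 25 lost a call and 7 gained one. Smaller changes of sign, such as that of miR-148b-3p (0.08 to −0.07 without replicate 3 of 5-Brd-2′-dU), were not counted. The only counted reversal was miR-143-3p, at −0.021 without replicate 3 of 5-Brd-2′-dU. It was highest, at 5.79, without replicate 2 of L-Tyr. The depth of the libraries left arms of low level untested.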
